A study of Mus musculus with 8 samples.

Results

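Claudins, their tight junction partners and the components of desmosomes hold the cells of an epithelium together, and 53 genes of this kind were followed in whole mouse uteri with and without a deletion of Foxa2. The members were taken by symbol from the 19938 genes measured: 28 claudins, 9 other tight junction genes, 7 desmosomal cadherins, 4 plakophilins, 3 other desmosome genes and 2 epithelial adhesion genes. Dsc1 and Dsg1a are not analysed here.

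Tight junctions ring the top of epithelial cells. Claudins, membrane-spanning proteins, form their strands and set which ions pass between cells, occludin and the MARVEL proteins sit in the same strands, and zonula occludens (ZO) proteins anchor them to actin. Desmosomes are spot welds: desmogleins and desmocollins bridge neighbouring cells, plakoglobin and plakophilins bind their tails, and desmoplakin ties these to keratin filaments. In the uterus the luminal epithelium remodels its junctions around the time of implantation, and the glands carry junctions of their own.

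Gene expression was measured in 8 uteri, with 1 microarray per uterus. The 4 controls were Pgr+/+ Foxa2+/+ and had no Cre. The 4 Foxa2-deleted females were PgrCre/+ Foxa2flox/flox: Cre recombinase replaces 1 allele of Pgr, the progesterone receptor gene, and both floxed Foxa2 alleles are cut where Pgr is active. Cre and the loss of 1 intact Pgr allele therefore cannot be told apart from the Foxa2 deletion. Females of both groups had mated with vasectomised wild type males and were taken on day 3.5 of pseudopregnancy, with the day of the plug as day 0.5; their age and strain are not stated. FOXA2 is the forkhead transcription factor of the endometrial glands.

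All values are log2 intensities of 1 probe set per gene, so levels are compared only within a gene. Array medians lay between 8.25 and 8.32. Precision is set by having 4 arrays a group. Foxa2 itself fell from 8.72 ± 0.09 in controls to 8.21 ± 0.01 in deleted uteri (SD, n = 4 each; difference -0.52, SE 0.05, adjusted p = 0.0013), so the arrays followed their labels; whether its probe set lies in the deleted part is not given. Pgr rose by 0.37, with an SE of 0.10 and an adjusted p of 0.043; leaving out any 1 control, or Foxa2-deleted replicate 1 or 4, took it past the threshold, to 0.105 at most. With all arrays kept, its call was also lost after a further quantile normalization and with replicate number as a block (adjusted p up to 0.0777). The arrays of deleted uteri were less alike, with correlations across genes of 0.981 to 0.990 against 0.996 to 0.997 among controls.

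The junction genes went both ways. Of 14 desmosome genes 4 were higher in deleted uteri (Perp 2.61-fold, Dsp 1.98-fold, Pkp2 1.83-fold, Jup 1.56-fold), as were Tjp3 (2.14-fold) and Epcam (1.83-fold), whereas the claudin genes Cldn10 (2.53-fold) and Cldn8 (2.37-fold) were lower. Of the 53 members 6 rose, 2 fell and 45 did not pass an adjusted p of 0.05 (limma, adjusted over all 19938 genes). That is 15.1% of the members called, beside 11.1% of all genes, of which 4.5% were called higher and 6.58% lower. The median difference of the members was 0.10, against 0.01 over all genes, and 39 members lay above 0 and 13 below. Over all genes the calls were 898 higher and 1311 lower, and 1082 higher and 982 lower with each array centred on its median; the 8 member calls stood under that and both other scalings. Of the 53 members 38 lay above the lowest 25% of genes by mean intensity and 23 in the upper 50%; no detection call comes with the values.

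**Figure D1:**
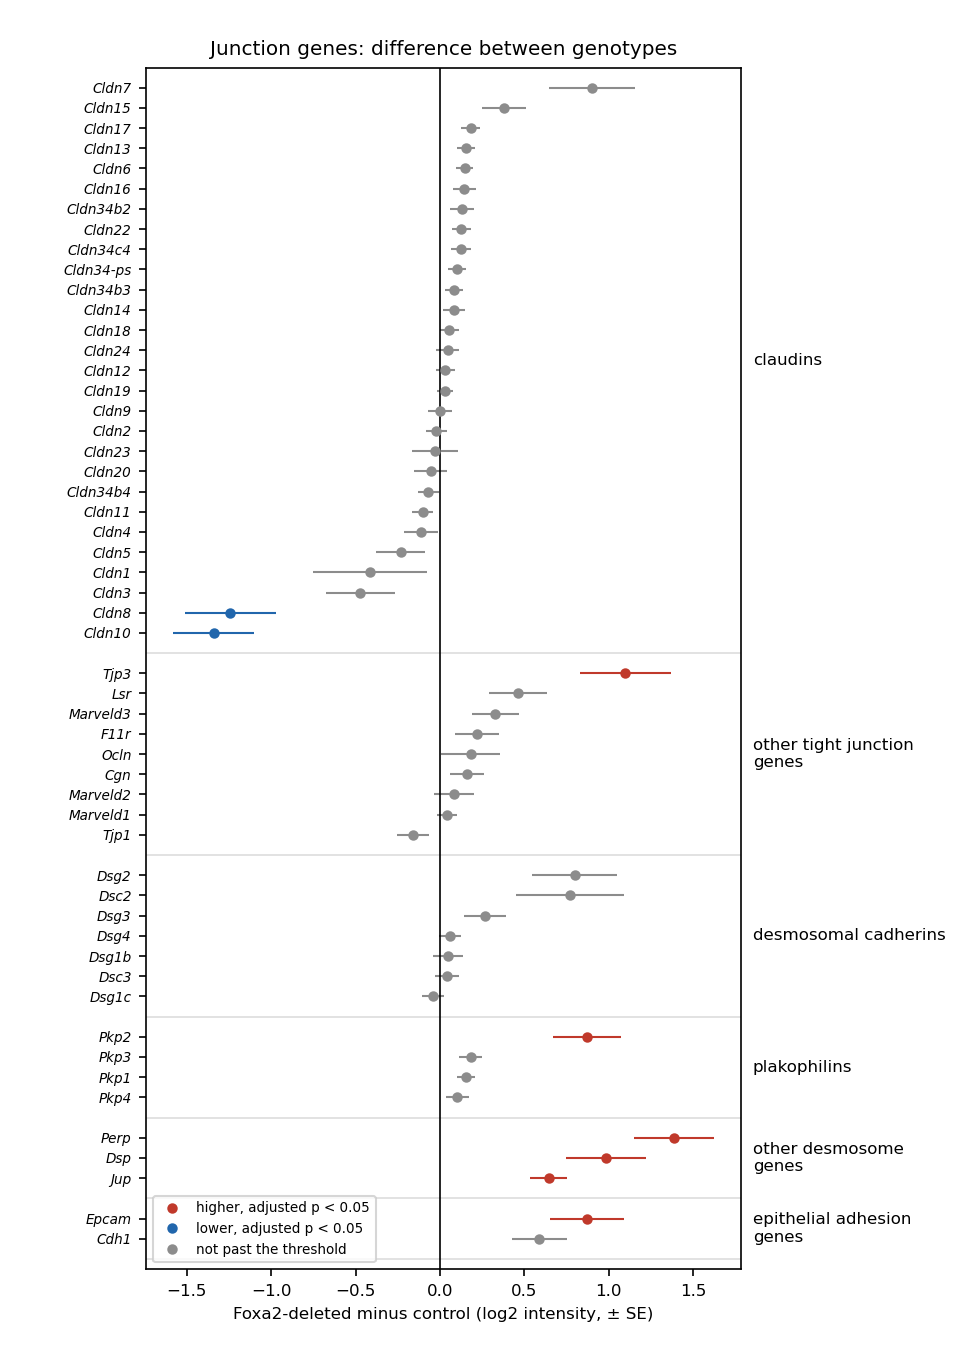
Difference between Foxa2-deleted and control uteri (log2 intensity, with SE of the moderated fit as bars) for all 53 junction genes, grouped by family; colours mark calls at an adjusted p under 0.05. Cldn8 and Cldn10 stand at the low end with -1.24 and -1.34, and Perp and Tjp3 at the high end with 1.39 and 1.10.

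Among the desmosome genes the largest difference was that of Perp, a small tetraspan membrane protein needed for stable desmosomes in stratified epithelia. Its log2 intensity was 8.33, 8.55, 8.60 and 8.60 in control replicates 1 to 4, and 9.96, 9.23, 10.59 and 9.84 in Foxa2-deleted replicates 1 to 4. Every deleted uterus lay above every control, by 0.63 at the closest pair. The difference was 1.39 (SE 0.24, adjusted p = 0.0127).

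Dsp encodes desmoplakin, the plakin that connects the desmosome to keratin filaments. Its controls read 9.07, 9.35, 9.35 and 9.19, and its deleted uteri 10.08, 9.58, 10.91 and 10.33. The groups did not overlap, and Foxa2-deleted replicate 2 came nearest to the controls. The difference was 0.99 (SE 0.24, adjusted p = 0.034).

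Jup encodes plakoglobin, an armadillo protein of both desmosomes and adherens junctions. Controls were tight at 10.62, 10.58, 10.54 and 10.53, while the deleted uteri read 11.21, 10.89, 11.49 and 11.26. Again no deleted uterus fell within the control range. Jup rose by 0.65 (SE 0.11, adjusted p = 0.0122), the smallest adjusted p among the members.

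Of the 4 plakophilins, armadillo proteins that cluster desmosomal cadherins at the plaque, Pkp2 passed. It stood at 8.35, 8.39, 8.39 and 8.39 in controls and at 9.14, 8.83, 9.94 and 9.09 in deleted uteri, with no overlap. Its difference was 0.87 (SE 0.20, adjusted p = 0.030). The other plakophilins differed less, with 0.16 for Pkp1 (SE 0.05), 0.18 for Pkp3 (SE 0.07) and 0.10 for Pkp4 (SE 0.07); their adjusted p lay between 0.0957 and 0.325. Pkp3 had groups that did not overlap at a difference of this size, with controls at 8.40 to 8.48 and deleted uteri at 8.49 to 8.81.

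None of the 7 desmosomal cadherins passed, and their adjusted p ran from 0.0724 to 0.732. The smallest was that of Dsg2, the desmoglein of simple epithelia, which read 8.21, 8.35, 8.36 and 8.35 in controls and 8.79, 8.54, 9.91 and 9.22 in deleted uteri. Its groups did not overlap, and the deleted uteri spanned 1.37 beside a difference of 0.80 (SE 0.25). Dsc2, the desmocollin of the same tissues, had a difference of 0.77 (SE 0.32, adjusted p = 0.138), with control replicate 4 at 8.01 above Foxa2-deleted replicate 2 at 7.95. Without Foxa2-deleted replicate 2 Dsg2 passed (adjusted p = 0.0236).

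The other 5 desmosomal cadherins are mainly those of skin and other stratified epithelia. Dsg3 had a difference of 0.27 (SE 0.13), and those of Dsc3, Dsg1b, Dsg1c and Dsg4 lay between -0.04 and 0.06. Among measured genes these 7 follow each other in gene order on chromosome 18, where Dsc2 is next to Dsg1c (difference -0.04) and Dsg2 next to Dsg3. A probe set shared by Dsg1a, Dsg1b and Dsg1c, which are near-identical copies, differed by 0.11 (SE 0.05, adjusted p = 0.212 over all probe sets) and was in no count. Over the 14 desmosome genes 4 rose and none fell (28.6% called, beside 11.1% of all genes), and 10 did not pass. All 4 lay in the upper 50% of genes by mean intensity, where 30.4% of the 23 members were called.

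**Figure D2:**
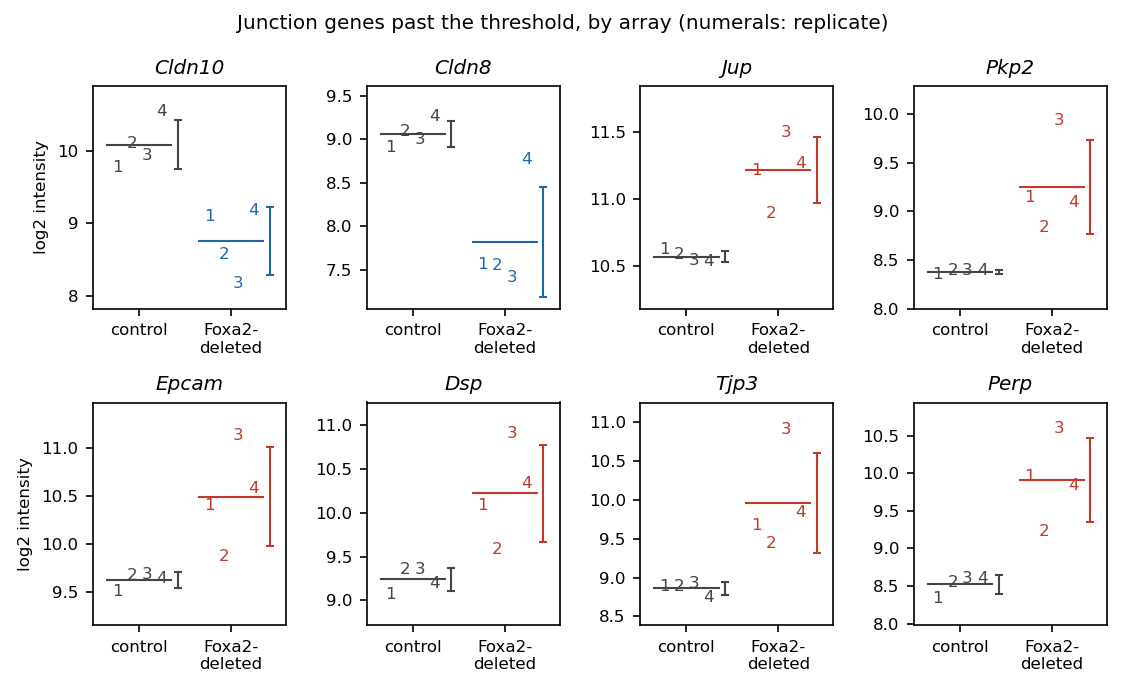
Log2 intensity of the 8 junction genes past an adjusted p of 0.05, each on its own scale; numerals are the replicate numbers of the uteri, the horizontal line is the group mean and the bar the SD (n = 4). In all 6 genes that rose Foxa2-deleted replicate 3 is highest and replicate 2 lowest, and in both claudins replicate 3 is lowest.

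The tight junction genes were divided. Tjp3, which encodes the scaffold ZO-3, was the 1 of 9 non-claudin members to pass. It read 8.89, 8.89, 8.93 and 8.74 in controls, and 9.67, 9.44, 10.90 and 9.83 in deleted uteri. All deleted uteri lay above all controls, and replicate 3 stood 1.07 above the next. The difference was 1.10 (SE 0.27, adjusted p = 0.037).

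Its paralogue Tjp1, which encodes ZO-1, had a difference of -0.16 (SE 0.09, adjusted p = 0.271), and its controls at 10.94 to 11.01 lay within the deleted range of 10.58 to 11.08. Occludin (Ocln) differed by 0.18 (SE 0.18), and tricellulin (Marveld2), its neighbour in gene order and the protein of contacts between 3 cells, by 0.09 (SE 0.12). Both had overlapping groups. Marveld3 and Marveld1 differed by 0.33 (SE 0.14) and 0.04 (SE 0.06).

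The remaining tight junction members were F11r, the junctional adhesion molecule JAM-A, with a difference of 0.22 (SE 0.13), the scaffold gene cingulin (Cgn) with 0.16 (SE 0.10), and Lsr, the angulin that recruits tricellulin, with 0.46 (SE 0.17, adjusted p = 0.109). In Lsr control replicate 2 and Foxa2-deleted replicate 2 both read 9.22, and Foxa2-deleted replicate 3 read 10.16. Without Foxa2-deleted replicate 2 Lsr and Marveld3 passed (adjusted p = 0.0382 and 0.00675).

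Of the 28 claudins 2 fell, none rose and 26 did not pass (7.14% called, beside 11.1% of all genes), with a median difference of 0.04. Cldn10, a claudin of which some isoforms form channels for cations and others for anions, read 9.77, 10.10, 9.94 and 10.55 in controls. Its deleted uteri read 9.09, 8.57, 8.17 and 9.17. The groups were apart by 0.60 at the closest pair. The difference was -1.34 (SE 0.24, adjusted p = 0.0147).

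A second probe set of Cldn10 also differed in this direction, by -1.18 (SE 0.22, adjusted p = 0.0203 over all probe sets). Another one, shared with the neighbouring gene Dzip1, differed by -0.58 (SE 0.15, adjusted p = 0.0509). The first 2 probe sets carry the symbol Cldn10 alone, and which of its isoforms they cover was not examined. RefSeq gives 2 start regions for this gene, and they are shown since the values do not tell which one was used less. They are the 250 bases before each start on the plus strand of GRCm38.p6, chr14:118787621-118787870 and chr14:118854700-118854949. Their GC content is 36.0% and 72.4%, and they are in lower case throughout since none of the motifs given further on lies in them.
Cldn10, first start: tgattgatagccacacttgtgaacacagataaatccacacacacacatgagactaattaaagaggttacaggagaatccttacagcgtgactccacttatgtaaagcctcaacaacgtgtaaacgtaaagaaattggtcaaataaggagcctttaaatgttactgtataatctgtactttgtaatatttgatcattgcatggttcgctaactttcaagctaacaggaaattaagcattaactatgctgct
Cldn10, second start: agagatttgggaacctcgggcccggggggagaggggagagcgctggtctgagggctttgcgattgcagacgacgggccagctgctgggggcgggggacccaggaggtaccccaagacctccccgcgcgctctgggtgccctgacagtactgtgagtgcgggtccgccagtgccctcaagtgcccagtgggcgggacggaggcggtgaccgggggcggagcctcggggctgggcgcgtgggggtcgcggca

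Cldn8 encodes a claudin known for tightening ion barriers in kidney and colon. Controls read 8.91, 9.09, 9.0 and 9.26, and deleted uteri 7.56, 7.55, 7.41 and 8.77. In this gene 3 deleted uteri lay close together and Foxa2-deleted replicate 4 stood 1.21 above them, 0.14 below the lowest control. The difference was -1.24 (SE 0.27, adjusted p = 0.0254). Cldn17, its neighbour in gene order, had a difference of 0.18 (SE 0.06, adjusted p = 0.068).

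Other claudins known from uterine epithelium varied among the deleted uteri. Cldn7, a basolateral claudin of simple epithelia, read 9.92, 10.10, 10.13 and 9.75 in controls and 10.48, 10.62, 11.74 and 10.66 in deleted uteri. It did not overlap between groups but narrowly missed the threshold (difference 0.90, SE 0.25, adjusted p = 0.0533). It passed without Foxa2-deleted replicate 2 or 3, with adjusted p down to 0.0095.

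Cldn3, a sealing claudin, read 11.12, 11.12, 11.03 and 10.85 in controls and 10.02, 11.04, 10.85 and 10.32 in deleted uteri. Its groups overlapped through Foxa2-deleted replicates 2 and 3 (difference -0.47, SE 0.20, adjusted p = 0.151), and without replicate 2 it passed (adjusted p = 0.0484). Cldn4, its neighbour in gene order, differed by -0.11 (SE 0.10). Cldn1 read 9.54, 9.53, 9.35 and 9.74 in controls, and 8.39, 9.14, 8.74 and 10.23 in deleted uteri. Here replicates 1 to 3 lay below all controls and replicate 4 above them all, so that the difference of -0.42 carried an SE of 0.34. Without replicate 4 it passed (-0.78, adjusted p = 0.0259).

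Cldn5, the claudin of endothelium, differed by -0.23 (SE 0.14, adjusted p = 0.298), with Foxa2-deleted replicate 3 at 9.27 and the other deleted uteri at 9.84 to 9.95. Of 10 endothelial markers 8 fell and none rose (median -0.64). Pecam1 fell by 0.66 (SE 0.10), Tie1 fell by 0.71 (SE 0.11), Egfl7 fell by 0.62 (SE 0.11) and Cdh5 fell by 0.79 (SE 0.15, a call lost without control replicate 2, 3 or 4). The count was 4, 5, 3 and 3 without control replicates 1 to 4. Their mean was lowest in replicate 3 too, at -0.95 from the control mean. Their part in the Cldn5 value was not tested.

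Cldn15 differed by 0.38 (SE 0.13, adjusted p = 0.0892), Cldn12 by 0.03 (SE 0.06) and Cldn23 by -0.03 (SE 0.14). The 19 claudins in the lower 50% of genes by mean intensity included Cldn8. The other 18 (Cldn2, Cldn6, Cldn9, Cldn11, Cldn13, Cldn14, Cldn16 to Cldn20, Cldn22, Cldn24 and 5 of the Cldn34 group) had differences between -0.10 and 0.18, none past the threshold. Some copies of the Cldn34 group share probe sets. Cldn34c4 differed by 0.13 (SE 0.06) in its own probe set, whereas 3 probe sets it shares with Cldn34c1 and Gm2411 differed by -0.31 to -0.33 (adjusted p 0.0557 to 0.0683 over all probe sets).

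**Figure D3:**
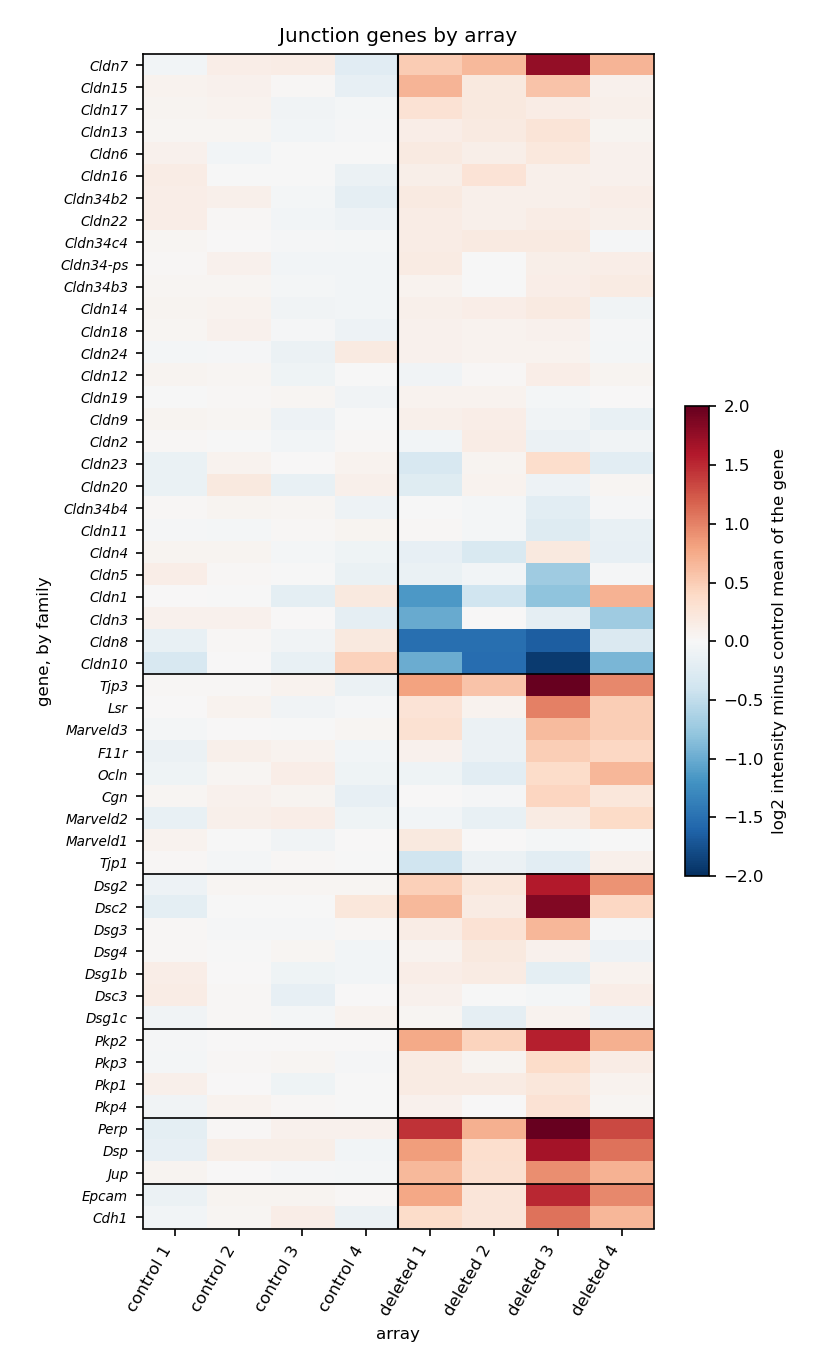
Log2 intensity of each junction gene in each of the 8 uteri, minus the control mean of that gene; rows are genes by family, columns arrays, and colours stop at -2 and 2 (Perp and Tjp3 in Foxa2-deleted replicate 3 exceed 2). In the deleted uteri the rows of Dsp, Jup, Perp, Pkp2, Tjp3 and Epcam are red, palest in replicate 2. Those of Cldn8 and Cldn10 are blue, but Cldn8 is pale in Foxa2-deleted replicate 4 (-0.295). Cldn7, Dsg2, Dsc2 and Cdh1, which did not pass, are also red, most other rows are pale, and Cldn1 changes sign among the deleted uteri.

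Epcam encodes an epithelial adhesion protein that binds claudin 7 and steadies it at the membrane. It read 9.50, 9.67, 9.68 and 9.64 in controls and 10.40, 9.87, 11.13 and 10.58 in deleted uteri, with no overlap. Its difference was 0.87 (SE 0.22, adjusted p = 0.039). Cdh1, E-cadherin, the adhesion receptor of adherens junctions, read 10.47, 10.56, 10.65 and 10.40 in controls and 10.89, 10.76, 11.60 and 11.18 in deleted uteri. It did not overlap either, but missed the threshold (0.59, SE 0.16, adjusted p = 0.0523).

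Counted over all members, 14 had groups that did not overlap (26.4%, beside 21.1% of all genes), 12 of them higher and 2 lower in deleted uteri. These were the 8 that passed, with Cldn7, Cldn13, Cldn17, Dsg2, Pkp3 and Cdh1.

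How far the calls depend on single uteri differed between genes. Jup and Perp passed without any 1 of the 8 arrays (adjusted p up to 0.0468 and 0.0454). Cldn10 missed the threshold only without control replicate 2 (adjusted p = 0.0503). Cldn8, Tjp3 and Pkp2 missed it when any single control, or replicate 1 of the deleted uteri, was left out (largest adjusted p 0.0802, 0.102 and 0.0837), and Dsp and Epcam also without Foxa2-deleted replicate 4 (up to 0.0956 and 0.0995). The number of members called was 3, 2, 3 and 3 without control replicates 1 to 4, and 3, 14, 10 and 11 without Foxa2-deleted replicates 1 to 4. In the last 2 cases the count includes members outside the 8: all 8 were called without replicate 3, and 6 of them, with Dsp and Epcam missing, without replicate 4. The count over all genes, 2209 with every array kept, moved in a like way. It was 1111, 557, 618 and 556 without control replicates 1 to 4, and 1069, 2947, 1868 and 3059 without Foxa2-deleted replicates 1 to 4.

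The order of the deleted uteri recurred from gene to gene. Foxa2-deleted replicate 3 was the highest and replicate 2 the lowest in each of the 6 members that rose. Epithelial markers that are no members had a like order, with replicate 3 highest in 12 and replicate 2 lowest in 13 of 14. Over all 898 genes called higher, replicate 3 was highest in 460 and replicate 2 lowest in 461.

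Of these 14 epithelial markers 6 rose and none fell (42.9% called, median 0.50), with Krt19 by 1.86 (SE 0.22), Elf3 by 1.78 (SE 0.25), Krt7 by 1.53 (SE 0.27) and Krt8 by 0.93 (SE 0.17, a call lost without control replicate 4). Without control replicate 4, 3 of the 14 were called. Their mean lay between -0.09 and 0.08 of the control mean in controls, and at 0.57, 0.27, 1.25 and 0.80 in Foxa2-deleted replicates 1 to 4. The mean of Dsp, Jup and Perp was at 0.97, 0.46, 1.55 and 1.03 in the same uteri. The mean of the 28 claudins was at -0.09, -0.04, -0.05 and -0.02. In whole tissue a change in the number of epithelial cells and a change of transcript per cell cannot be told apart.

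Set against the mean of the epithelial markers array by array, 3 of the 6 members that rose still lay above all controls in every deleted uterus. They were the 3 of all 53 members to do so (5.66%, beside 0.562% of all genes). This is not particular to junction genes: among the markers themselves Krt19, Elf3, Krt7 and Krt8, with others, also lay above all controls on this scale. The share of all genes is not limited to genes of epithelium. Since the marker mean is higher in every deleted uterus, most genes lie lower on this scale: 31 members (58.5%) and 76.5% of all genes lay below all controls. The markers were uneven, with differences from 0.00 to 1.86 (median 0.50, mean 0.72). Their mean therefore leans on those that rose most and is no measure of epithelial content. For Perp this difference of changes was 0.44 to 0.87 (controls -0.10 to 0.12), for Tjp3 0.17 to 0.79 (controls -0.08 to 0.12) and for Dsp 0.07 to 0.42 (controls -0.08 to 0.06). Jup, Pkp2 and Epcam overlapped the controls on this scale, as did Cdh1, at -0.20 to -0.03 (controls -0.08 to 0.05). Cldn8 lay at -2.91 to -1.09 and Cldn10 at -3.17 to -1.57, and both are among those 31, as are Tjp1, Ocln and F11r. These are descriptions with no test.

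**Figure D4:**
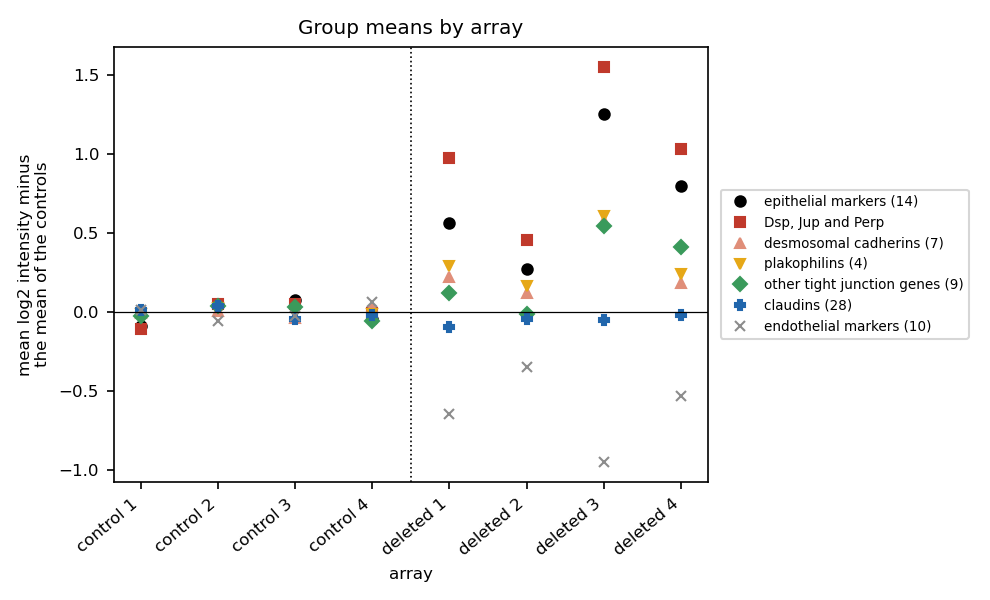
Mean log2 intensity of each gene group in each uterus, minus the mean of the 4 controls; symbols stand for groups, with the number of genes in brackets. The mean of Dsp, Jup and Perp lies above that of the epithelial markers in each deleted uterus, from 0.46 in Foxa2-deleted replicate 2 to 1.55 in replicate 3, the claudin mean stays between -0.09 and -0.02, and the endothelial mean is lower.

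Markers of other tissues that carry many junctions were set beside these values. Of 10 markers of stratified squamous epithelium, as in cervix and vagina, 3 rose and none fell (median 0.19), Ivl by 0.25 (SE 0.06), Krt13 by 0.43 (SE 0.11) and Krt14 by 0.29 (SE 0.08). All 10 lay in the lower 50% of genes by mean intensity, and the group means ran from -0.06 to 0.06 in controls and from 0.06 to 0.27 in deleted uteri. All 3 calls were lost without any 1 control, and that of Krt14 without any 1 deleted uterus too. Of 9 gland markers 5 fell and 1 rose (median -0.74); without Foxa2 itself, which is on the list, 4 of 8 fell and 1 rose (median -0.80). Spink1 fell by 4.28 (SE 0.26) and Cxcl15 fell by 3.99 (SE 0.11), while Aldh1a1 rose by 1.20 (SE 0.27), a call lost when any single control or deleted replicate 1 was left out. The mean without Foxa2 was at -1.25, -1.41, -1.01 and -1.26 in Foxa2-deleted replicates 1 to 4. The part of these cell types in the claudin and desmosome values was not tested.

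Of the other lists, 1 of 8 smooth muscle markers rose (Actg2 by 0.51, SE 0.13, a call lost without most single arrays). Of 10 leukocyte markers 4 fell and none rose (median -0.15), among which Itgax fell by 0.74 (SE 0.07) and Ncr1 fell by 1.23 (SE 0.18). The leukocyte list was mixed, with 5 differences above 0, up to 0.93, and 5 below, down to -1.845. None of 8 stromal markers and none of 5 mesothelial markers passed.

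Further junction genes outside the members also went both ways. Of 21 further tight junction genes 4 fell and 1 rose (median -0.02; 23.8% called). The scaffold gene Magi1 fell by 0.63 (SE 0.07, adjusted p = 0.0020) and Ildr1, an angulin like Lsr, fell by 0.59 (SE 0.11, adjusted p = 0.0145). Esam and Jam3, adhesion molecules found in endothelium among other tissues, fell by 0.81 (SE 0.15) and fell by 0.45 (SE 0.12), beside the lower endothelial markers given above. The Rab13 partner gene Micall2 was the 1 that rose, by 0.83 (SE 0.23, adjusted p = 0.0485).

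That of Micall2 was lost when any single control, or deleted replicate 1 or 4, was left out (up to 0.121). Of the other calls that of Magi1 stood without any 1 array. Ildr1 was lost without control replicate 2 (adjusted p = 0.0513), Esam without control replicate 2, 3 or 4 (up to 0.0572), and Jam3 without any 1 control or Foxa2-deleted replicate 1 or 4 (up to 0.118). Jam3 was also lost under all 3 other scalings, and Micall2 under cyclic loess and under trend and robust moderation (largest adjusted p with all arrays kept 0.0761 and 0.0753). Of 22 adherens junction and polarity genes 2 rose and none fell (median 0.09; 9.09% called). These were the adhesion gene Nectin4, by 0.52 (SE 0.10, adjusted p = 0.0177), and vinculin (Vcl), an actin linker also of muscle, by 0.38 (SE 0.10, adjusted p = 0.0467). Nectin4 was lost without control replicate 2, 3 or 4 (up to 0.0612) and Vcl without any 1 control or Foxa2-deleted replicate 1 or 3 (up to 0.125). Of 9 desmosome linkers and keratins 2 rose, Krt8 and Krt14, and 7 did not pass (22.2% called). Both are also counted above, Krt8 among the epithelial and Krt14 among the squamous markers. The call of Krt14 was lost without any 1 array, and that of Krt8 without control replicate 4.

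The start regions of the members were searched for 5 motifs on both strands, over 300 bases each (250 before and 50 after the start, RefSeq on GRCm38.p6). Of the 53 members 34 had such a region, 46 regions in all, among them 5 of the 8 that passed; Cldn8, Perp and Pkp2 had none. The forkhead motif TGTTTAC was in 0 of the 46 regions, beside 3.65% of 32851 mouse regions, and TGTTTGC in 3 of 46 (Cldn18 with 2 starts and Cldn34-ps), beside 5.07%. The grainyhead core AACCNGTT was in 2 (Cgn and Cldn5), beside 2.09%, and the estrogen response element, GGTCA and TGACC with 3 bases between, in 0, beside 0.07%. No match says only that these letters are not in this window.

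The E-box CAGGTG, or CACCTG on the other strand, is the form bound by SNAIL and ZEB repressors in the E-cadherin promoter. It was searched for after the other 4 motifs. It lay in 16 of the 46 regions (34.8%), beside 20.2% of all regions, among them those of Epcam, Tjp3 and Dsp, which rose, and of Cldn4, Cldn7, Lsr and Ocln, which did not pass. It did not lie in those of Cldn10 and Jup. Overlapping regions of Marveld2, and likewise of Ocln, share an E-box that was counted in each region. For Cdh1, which encodes E-cadherin, no match was found, and whether it had a region in this set is not given. The regions of Epcam and Tjp3 are shown as the members that rose with an E-box before the start; capitals mark it. They are chr17:87635729-87635978 on the plus strand for Epcam, and chr10:81291268-81291517 and chr10:81291582-81291831 on the minus strand for the 2 starts of Tjp3, 250 bases each. Counted from the start, the E-boxes begin at -187 and -19 in Epcam, at -17 for the downstream start of Tjp3 and at -108 for its upstream start. A match is a description of the letters, not a site in use.
Epcam: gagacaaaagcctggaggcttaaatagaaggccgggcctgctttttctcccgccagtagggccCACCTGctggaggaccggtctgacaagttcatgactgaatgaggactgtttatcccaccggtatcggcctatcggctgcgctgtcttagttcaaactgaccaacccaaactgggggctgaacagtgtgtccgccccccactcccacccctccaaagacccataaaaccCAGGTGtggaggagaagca
Tjp3, downstream start: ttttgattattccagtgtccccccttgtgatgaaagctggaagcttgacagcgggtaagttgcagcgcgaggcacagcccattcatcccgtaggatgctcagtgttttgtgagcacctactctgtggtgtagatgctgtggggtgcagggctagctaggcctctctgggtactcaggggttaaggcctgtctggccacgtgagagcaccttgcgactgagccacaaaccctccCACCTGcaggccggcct
Tjp3, upstream start: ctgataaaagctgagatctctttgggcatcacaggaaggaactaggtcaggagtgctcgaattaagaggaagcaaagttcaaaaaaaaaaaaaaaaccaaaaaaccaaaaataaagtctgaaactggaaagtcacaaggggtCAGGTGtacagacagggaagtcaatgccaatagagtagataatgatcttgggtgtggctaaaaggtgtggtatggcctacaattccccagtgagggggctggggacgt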

How the data were processed

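Total RNA of 8 whole uteri (150 ng each) was labelled by an Affymetrix whole-transcript protocol, per the labels' protocols. The deposited values are log2 intensities made by the authors with RMA, per the submitters' processing notes, which also name limma; no version or build is named there. RMA draws dim probe sets to a floor and so understates their changes. Of 35556 probe sets 21789 carried 1 gene symbol in GEO's platform annotation, 1621 several and 12146 none. The probe set with the highest mean stood for each of 19938 genes; all 53 members matched RefSeq by Entrez identifier. Differences (deleted minus control) were fitted over all genes with lmFit and eBayes in limma 3.58.1 (R 4.3.3), no covariate, Benjamini-Hochberg adjusted, and called at an adjusted p under 0.05. The labels call replicates biological. By rule every member could be named; from the other lists came the 4 genes (or fewer) with the lowest p among those called, or the lowest 2 where none was. Micall2 and Aldh1a1 are named outside that rule, after their values were seen. The fit was also run on simulated data, with the same SD in both groups and each gene drawn independently. That setting lacks the wider spread of the deleted uteri and their shared order, so it does not test the calls given here. Members and lists were chosen with earlier results of these data known. Alternatives are given in the closing section.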

Additional observations from a re-analysis of the deposited data

Results flagged for a closer look

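In 110 groups of 4 arrays (the 53 members with Foxa2 and Pgr, in both genotypes) the gap of the highest or lowest uterus to the next was set against the range of its group. It exceeded Dixon's 95% critical value in 10, where chance gives about 1 in 20. Among the members described at length, Foxa2-deleted replicate 4 stood above the others in Cldn8 (8.77 against 7.56, share of the range 0.89), and replicate 3 above them in Cldn7 (11.74 against 10.66, share 0.857) and below them in Cldn5 (9.27 against 9.84, share 0.838). Control replicate 1 was low in Dsg2 (8.21 against 8.35, share 0.933) and in Pkp2 (8.35 against 8.39, share 1), a gap of 0.04 in the latter. In dim claudins Foxa2-deleted replicate 4 was low in Cldn18 (share 0.9), Cldn24 (share 0.917) and Cldn34c4 (share 0.857), replicate 3 low in Cldn34b4 (share 0.857) and replicate 2 high in Cldn16 (share 0.842).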

How the results depend on the processing

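Results were recomputed under 17 alternatives, of which 8 left out 1 array each. The 8 members called stood under 3 other scalings, trend and robust moderation, array weights, the mean of probe sets and without the lowest 25% of genes, and 7 of them without the lower 50%, where Cldn8 was left out. Some of these settings called further members. The count was 10 after a further quantile normalization, with arrays centred on their median and without the lowest 25% of genes. It was 9 without the lower 50% and 12 with array weights. Over all genes, deviations from the group mean were nearly uncorrelated between uteri of the same replicate number (correlations -0.05 to 0.06). This cannot exclude a shared factor that acts on some genes, and the labels do not say that the numbers pair uteri. With the replicate block 1062 genes were called (435 higher, 627 lower), among them 4 members (2 higher: Jup and Perp). Of the further lists 3 tight junction genes, 1 adherens gene and 1 desmosome linker gene were called. Tjp3, Pkp2, Dsp and Epcam then had adjusted p of 0.0515 to 0.0577. Without the lower 50% of genes 533 were higher, with 1 member lower, 1 adherens and 1 linker gene called. Array weights gave 1351 higher, 10 members higher, 8 of the further tight junction genes outside the members and 1 linker, and cyclic loess 1 linker. Leaving out 1 array gave 556 to 3059 genes called (196 to 1374 higher, 348 to 1777 lower) and 2 to 14 members (2 to 11 higher, 0 to 3 lower). Outside the members it gave 1 to 10 further tight junction, 0 to 3 adherens and 0 to 1 linker genes. With 4 arrays a group, most member calls thus rest on every control; the cause was not tested. No called member changed sign. Over single genes 1255 values kept their call, 123 lost it and 27 gained one; those that changed sign were 8 members that had not passed, with differences near 0. With the block, or cyclic loess, 0 smooth muscle and 0 squamous markers were called.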
